A study of Mus musculus with 9 samples.

Results

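The genes examined were the 9 that encode the main enzymes of prostaglandin synthesis, *Pla2g4a*, *Ptgs1*, *Ptgs2*, *Ptges*, *Ptges2*, *Ptges3*, *Ptgds*, *Ptgis* and *Tbxas1*, out of 21951 protein-coding genes of GENCODE M21. The rule names them by their place in the pathway and uses no measured value. For each, every ChIC-Seq peak was collected whose summit lay in the gene body or within 20 kb of it. A peak was assigned to the gene's own start when the summit lay within 2 kb of the start of any of its annotated transcripts, to another start when within 2 kb of the start of another gene, and was otherwise called distal. In the 6 replicate peak lists these loci held 80 merged regions of 83005 in the whole series.

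The libraries came from wild-type (WT) primary oviductal muscle cells of mice aged 8 to 12 weeks on D2 (day 2) of pregnancy, and both antibodies were used on the same kind of cell. The cells had been dispersed with enzymes from whole oviducts, passed through a filter and plated briefly, and no sorting by a marker was described. In ChIC-Seq an antibody guides a nuclease to its target in fixed cells, and the DNA released around the target is sequenced. There were 3 libraries with an antibody to PBRM1 (also called BAF180), a defining subunit of PBAF, which is one of the SWI/SNF remodeling complexes, and 3 with an antibody to BRG1, an ATPase found in PBAF and in other complexes of the family. A further 3 IgG samples were not analysed here, so no background of the assay without a specific antibody stands beside the values. The labels do not say whether replicate libraries came from separate animals, and p-values measure only the spread between these libraries. The limma fits share that spread over all fitted regions. Their p-values and intervals thus do not rest on the values at a single region alone.

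The enzymes act in sequence. Cytosolic phospholipase A2, from *Pla2g4a*, frees arachidonic acid from membranes, and the cyclooxygenases, from *Ptgs1* and *Ptgs2*, turn it into prostaglandin H, the common precursor. Terminal synthases then make the separate prostanoids: prostaglandin E from *Ptges*, *Ptges2* and *Ptges3*, prostaglandin D from *Ptgds*, prostacyclin from *Ptgis* and thromboxane from *Tbxas1*. *Ptgs2* and *Ptges* are known as the inducible members of the chain, and in the oviduct prostaglandins are known for their effects on the tone of the muscle that moves the embryo.

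The sequences shown are windows at peaks of the inducible members, *Ptgs2* and *Ptges*: the start regions of both, the *Ptges* intron region with AP-1 matches, and the paired sites upstream of *Ptgs2* at which most summits of the antibodies differed in position. They were read from GRCm38.p6 (the mm10 coordinates of the files), 5′ to 3′ on the strand of the gene, with matched motifs in capitals. The *Ptgs2* window (chr1:150099684-150099983, plus strand) lies just upstream of the start and holds a match to the NF-kappa-B motif whose first base is 335 bases before the start and a GC box (GGGCGG) at 170 bases before it. The *Ptges* start window (chr2:30929600-30929899, minus strand) holds an AP-1 match (TGAGTCA) beginning 26 bases before the gene's 5′-most start and a full cyclic AMP response element (TGACGTCA) beginning 58 bases past it. The *Ptges* intron window (chr2:30920160-30920459, minus strand) holds 2 AP-1 matches (TGACTCA). The far upstream *Ptgs2* windows of 120 bases are centred on the summit of the pooled BRG1 list (chr1:150088996-150089115, plus strand) and of the pooled PBRM1 list (chr1:150089364-150089483, plus strand), and hold no match. None of the matches shown overlapped another.
*Ptgs2* start region: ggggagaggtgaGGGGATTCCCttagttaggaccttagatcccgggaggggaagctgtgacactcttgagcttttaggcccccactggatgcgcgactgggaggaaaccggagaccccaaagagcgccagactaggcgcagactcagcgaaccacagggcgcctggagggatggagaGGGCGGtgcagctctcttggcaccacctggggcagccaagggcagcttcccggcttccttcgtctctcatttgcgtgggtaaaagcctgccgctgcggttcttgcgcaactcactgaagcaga
*Ptges* start region: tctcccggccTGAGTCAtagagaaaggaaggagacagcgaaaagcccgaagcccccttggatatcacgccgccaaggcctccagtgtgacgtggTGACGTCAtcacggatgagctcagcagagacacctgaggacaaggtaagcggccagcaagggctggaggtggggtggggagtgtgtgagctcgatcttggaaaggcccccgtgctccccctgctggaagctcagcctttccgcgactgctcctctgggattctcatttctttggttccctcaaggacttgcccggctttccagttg
*Ptges* intron region: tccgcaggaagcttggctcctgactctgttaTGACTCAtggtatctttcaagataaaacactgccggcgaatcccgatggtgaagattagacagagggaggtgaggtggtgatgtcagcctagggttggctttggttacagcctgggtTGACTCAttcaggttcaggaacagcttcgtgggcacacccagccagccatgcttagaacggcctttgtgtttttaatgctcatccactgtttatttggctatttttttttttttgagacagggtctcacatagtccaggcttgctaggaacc
*Ptgs2* upstream site, BRG1 summit: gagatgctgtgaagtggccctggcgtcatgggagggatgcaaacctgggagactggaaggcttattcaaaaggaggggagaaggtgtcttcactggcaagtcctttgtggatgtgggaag
*Ptgs2* upstream site, PBRM1 summit: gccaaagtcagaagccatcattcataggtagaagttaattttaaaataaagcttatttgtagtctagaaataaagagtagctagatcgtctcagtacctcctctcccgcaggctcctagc

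These matches are descriptions of letters. Over 300-base windows centred on the 12830 six-list regions (those with a peak in all 6 replicate lists) of the assembled chromosomes, the AP-1 motif TGANTCA was present in 17.3%, the cyclic AMP response element in 2.5%, the NF-kappa-B motif in 5.21% and the GC box in 47.5%. Other motifs searched on both strands were the CCAAT box CCAAT (36.1%), the TATA box TATAAA (6.46%), the E-box CACGTG (8.38%), the TEAD motif GGAATG (16.7%) and the CArG box (1.73%). Of the 10 six-list windows at the members' own starts or distal, 3 held a TEAD match, 2 each held AP-1, the GC box and the E-box, and 2 held none of the 9 motifs. In the 300 bases before the 5′-most starts, the GC box was matched in 5 of 9 members against 40.4% of 21938 protein-coding promoters, and the CCAAT box in 0 of 9 against 39.8%. AP-1, the E-box and the TEAD motif were each matched in 1 member, and the other 4 motifs in none. CpG counts in the same bases ran from 35 in *Ptges3* and 21 in *Ptges2* through 15 in *Ptgs2* to 4 in *Pla2g4a* and 3 in *Ptgds*, against a median of 9 over all promoters.

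The PBRM1 libraries held 19792451, 18126049 and 23992352 fragments in replicates 1 to 3 and the BRG1 libraries 15897724, 14284532 and 15034230. Every PBRM1 library was thus deeper than every BRG1 library. The part of depth in the differences between antibodies was not tested. Each list had between 31970 and 39467 peaks. Pileup, the number of fragments over the summit, is given as FPM (fragments per 1000000 fragments of its library), and for a region with several peaks of a library the strongest was taken. A list without a peak at a place gives no value there, which is not a measure of absence. Among all 12842 six-list regions the PBRM1 value was lower than the BRG1 value by a median of 0.49 on the log2 scale (median difference -0.485). Differences are therefore also given after each library was centred on its own median over these regions, so that a centred value is relative to that shift.

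Peaks at the starts of cell type markers were set beside the label. In all 6 lists a start peak was found for 5 of 8 smooth muscle genes (*Acta2*, *Tagln*, *Cald1*, *Smtn* and *Mylk*). *Des* had one in 1 PBRM1 and 3 BRG1 lists, *Myh11* had one in a single BRG1 list, and *Cnn1* had none. Of all protein-coding genes, 41.5% had a start peak in all 6 lists and 34.9% had none in any. None of 7 oviduct epithelium, 5 immune and 4 fibroblast genes had one in all 6 lists, and *Tek* was the only one of 4 endothelium genes. Some had one in fewer lists: *Cdh1* in 3, *Krt8* in 2 and *Krt18* in 1 of the epithelium genes, and *Csf1r* in 3 of the immune genes. Of the endothelium genes, *Kdr* had one in 5 and *Pecam1* in 1. Of the fibroblast genes, *Thy1* had one in 3 PBRM1 and 2 BRG1 lists and *Pdgfra* in 1 PBRM1 and 2 BRG1 lists. *Dcn* had one in 3 BRG1 lists and *Col1a1* in 1 PBRM1 list. The other 4 epithelium genes (*Epcam*, *Pax8*, *Foxj1* and *Ovgp1*), the other 4 immune genes and *Cdh5* had none in the replicate lists. The part of other cell types in the peaks at the members was not tested.

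At the level of whole genes, 6 of the 9 members had a peak at one of their own starts in all 6 lists (*Pla2g4a*, *Ptgs1*, *Ptgs2*, *Ptges*, *Ptges2* and *Ptges3*), where 41.5% of protein-coding genes did. The same 6 had one in all 3 PBRM1 lists (43.9% of genes) and in all 3 BRG1 lists (49.6%). *Tbxas1* had one in 4 replicate lists and *Ptgis* in 1 PBRM1 replicate list, and both pooled lists had one at each gene. *Ptgds* had none in any replicate list or either pooled list, as did 34.9% of genes over the replicate lists. The loci of the 9 genes with every summit are shown in the map of peaks by library.

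**Figure D1:**
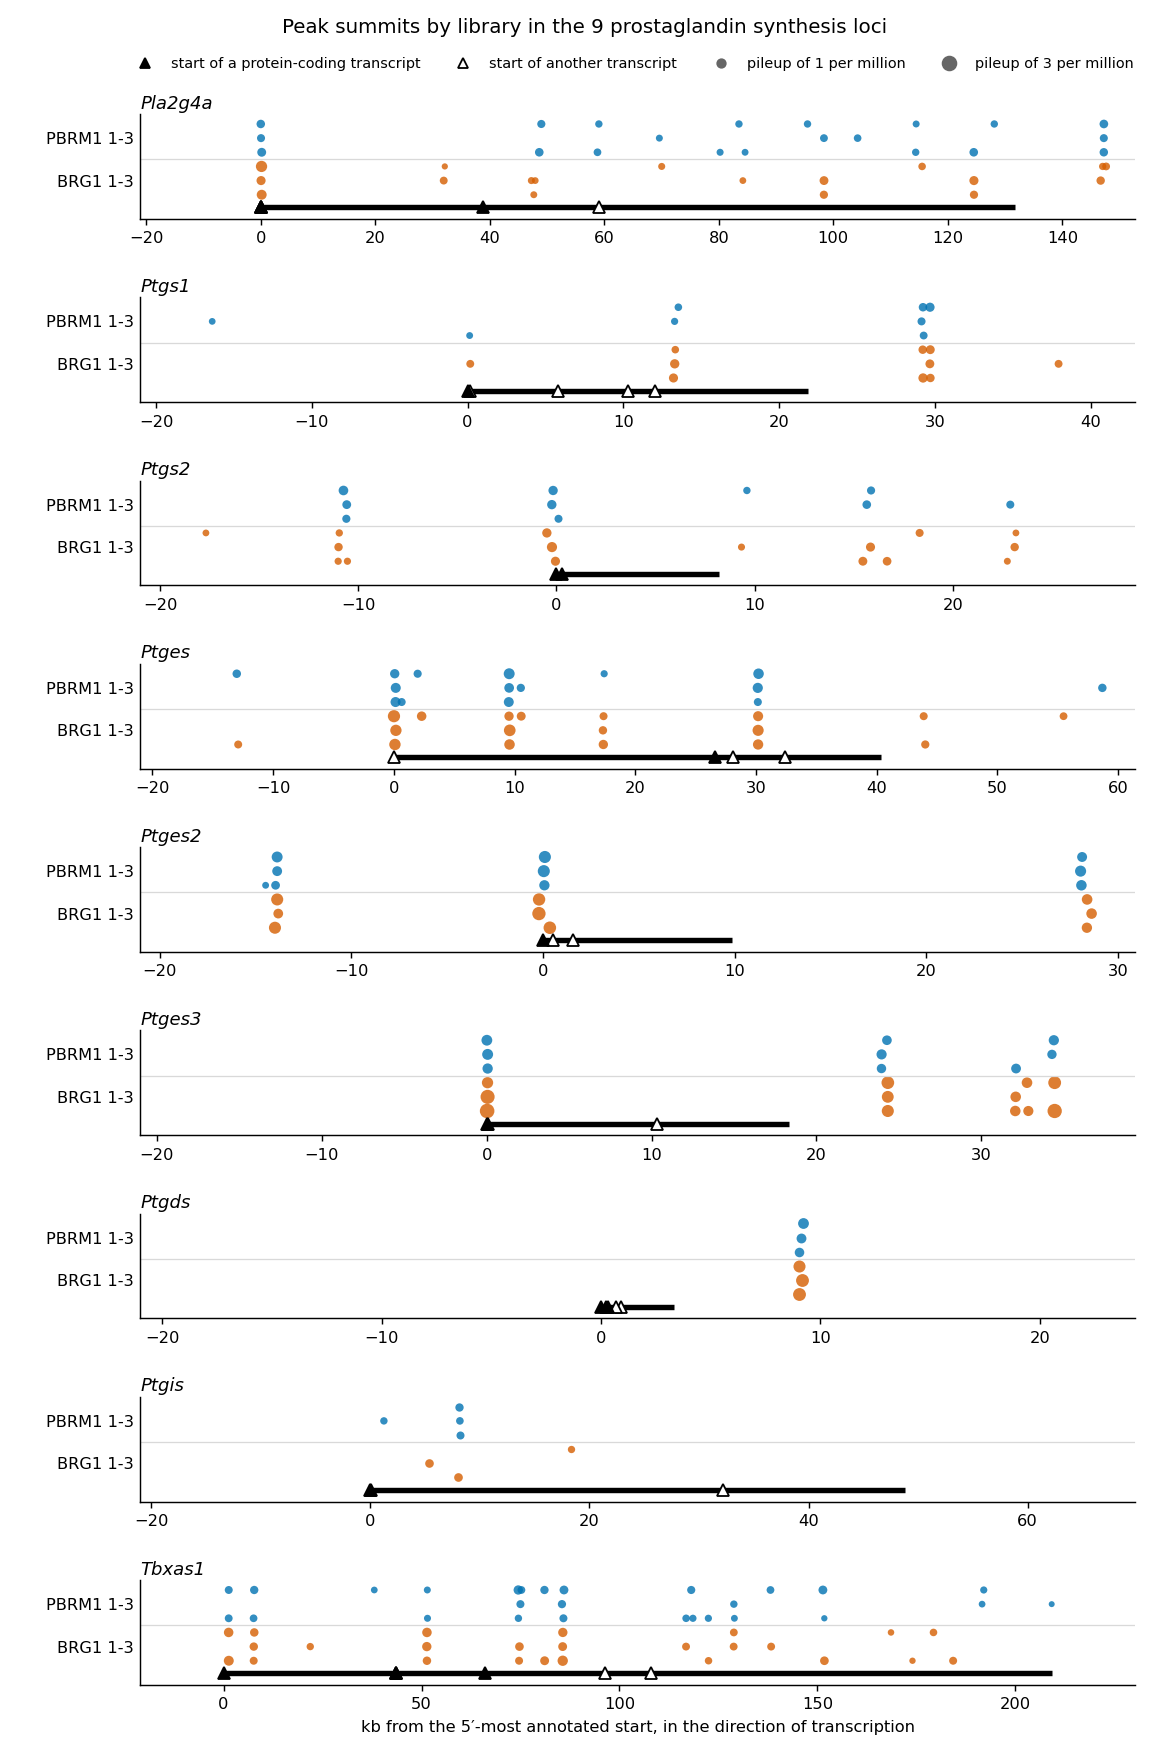
Peak summits in the 9 loci, in kb from the 5′-most annotated start in the direction of transcription, with 1 row per library (PBRM1 replicates 1 to 3 in blue above BRG1 replicates 1 to 3 in orange). Circle area grows with FPM, the black bar is the gene body, and filled and open triangles are starts of protein-coding and other transcripts. Summits line up in all 6 rows at the starts of *Pla2g4a*, *Ptgs2*, *Ptges2* and *Ptges3* and at the 5′-most start of *Ptges*, and there are none over the starts of *Ptgds*.

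Which transcript begins at a peak altered this count. The 5′-most start of *Ptges* belongs to a transcript annotated as non-coding, and its only protein-coding transcript begins 26.6 kb further along the gene, where none of the 6 replicate lists had a summit within 2 kb, although both pooled lists did. At *Ptgs1* the protein-coding start had a peak in PBRM1 replicate 3 and BRG1 replicate 2 alone, and the other 4 libraries counted through a region at 13.3 kb, 1254 bp past the start of a short retained-intron transcript. With starts of protein-coding transcripts alone, an alternative chosen after these positions were seen, 4 of 9 members had a peak in all 6 lists (*Pla2g4a*, *Ptgs2*, *Ptges2* and *Ptges3*) against 40.1% of genes. With a −log10 q of at least 5, 3 of 9 remained (*Ptges*, *Ptges2* and *Ptges3*), against 27.0% of genes at that setting. In the PBRM1 lists alone it was 3 of 9 (28.8% of genes) and in the BRG1 lists alone 5 of 9 (38.1%).

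*Pla2g4a*, which supplies the substrate of the chain, spans 132 kb of chromosome 1 on the minus strand (149829618 to 149961290). Its start region (149960701 to 149961328) was in all 6 lists. Pileup was 1.01, 0.883 and 1.13 FPM in PBRM1 replicates 1 to 3 and 1.95, 1.19 and 1.46 in BRG1 replicates 1 to 3. The highest PBRM1 library lay below the lowest BRG1 library, so the groups did not overlap. The difference was -0.59 on the log2 scale (SE 0.21, 95% interval -1.01 to -0.16, limma adjusted p = 0.0175), and -0.12 (limma adjusted p = 0.776) after centring. On the ratio of pileup to local background it was -0.88 (limma adjusted p = 0.00456), where the median of all six-list regions was -0.20. Without PBRM1 replicate 2 the limma adjusted p was 0.0730, and without BRG1 replicate 1 it was 0.172. Among 8657 genes with a six-list start region its mean level lay at percentile 20.7 for PBRM1 and 23.3 for BRG1. Of its distal regions, that with most lists lay 15.6 kb past the 3′ end of the gene (149813888 to 149814905), in all 3 PBRM1 lists and 2 BRG1 lists.

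*Ptgs1* encodes the constitutive cyclooxygenase (chromosome 2, 36230426 to 36252272, plus strand). At its protein-coding start pileup was low where a peak was called, 0.584 FPM in PBRM1 replicate 3 and 0.840 in BRG1 replicate 2. The region at 13.3 kb, in an intron, had values of 0.758 and 0.662 in PBRM1 replicates 1 and 2 and 0.755, 1.26 and 1.20 in the BRG1 replicates. Both values of PBRM1 lay near the lowest of BRG1, and with 1 PBRM1 library lacking a peak no difference was fitted. The strongest support in the locus was intergenic, 7.64 kb past the 3′ end (36259056 to 36260399). There PBRM1 had 1.21, 0.883 and 0.834 FPM and BRG1 1.13, 1.12 and 1.26, overlapping groups with a difference of -0.28 (SE 0.22, limma adjusted p = 0.267). This is a wide region of 1344 bp, and no six-list region was left there when summits within 300 bp, instead of overlapping peaks, were joined.

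*Ptgs2* encodes the inducible cyclooxygenase (chromosome 1, 150100031 to 150108227, plus strand). Its start region (150099433 to 150100397) was in all 6 lists and also lay within 2 kb of the start of the non-coding gene *Ptgs2os*. Pileup was 1.26, 1.27 and 0.875 FPM for PBRM1 and 1.26, 1.54 and 1.20 for BRG1. The groups overlapped, with means of 1.14 ± 0.226 and 1.33 ± 0.183 (SD, n = 3 each). The difference was -0.24 (SE 0.21, 95% interval -0.67 to 0.18, limma adjusted p = 0.329), and 0.22 (interval -0.18 to 0.62, limma adjusted p = 0.548) after centring. These pileups were 18 to 25 fragments, and the 95% Poisson interval of PBRM1 replicate 1, for counting error only, ran from 0.817 to 1.86 FPM. The level was modest among genes with a six-list start region, at percentile 32.5 for PBRM1 and 13.4 for BRG1. The genes whose start regions had the most similar log2 values over the 6 libraries were *Rab32* (Euclidean distance 0.190), *Zfp157* (0.195) and *Dctn3* (0.197).

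A second *Ptgs2* region lay 10678 bp upstream, in an intron of *Ptgs2os* (150088957 to 150089552). PBRM1 had 1.36, 1.1 and 0.917 FPM and BRG1 0.692, 0.980 and 0.665. PBRM1 was the higher here, although BRG1 replicate 2 exceeded PBRM1 replicate 3. The pileups were 27, 20 and 22 fragments for PBRM1 and 11, 14 and 10 for BRG1. For counting error only, the 95% Poisson interval was 0.899 to 1.98 FPM in the highest library, PBRM1 replicate 1. It was 0.319 to 1.22 FPM in the lowest, BRG1 replicate 3, so these intervals overlapped. The means were 1.13 ± 0.225 and 0.779 ± 0.175 (SD, n = 3 each), and the difference was 0.54 (SE 0.23, 95% interval 0.087 to 0.99, limma adjusted p = 0.0391). After centring it was 1.00 (interval 0.57 to 1.44, limma adjusted p = 0.00482). Only 0.428% of the six-list regions were called higher in PBRM1 on the FPM scale and 2.28% after centring. The call was not made on the ratio of pileup to local background, where the difference was 0.34 (limma adjusted p = 0.201), nor without PBRM1 replicate 2 (0.0669), BRG1 replicate 1 (0.122) or BRG1 replicate 3 (0.152, all limma adjusted p).

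Most summits of the 2 antibodies lay at different positions in this upstream region. PBRM1 summits lay 10751, 10585 and 10605 bp before the *Ptgs2* start in replicates 1 to 3. BRG1 summits lay 10962 and 10999 bp before it in replicates 1 and 2, and replicate 3 had separate peaks at 11018 and 10550 bp with equal pileup. The peaks of PBRM1 replicates 2 and 3 did not overlap those of BRG1 replicates 1 and 2, and the long peak of PBRM1 replicate 1 was what joined them. Without that library there was no region with a peak in the remaining 5 lists and no difference could be fitted. The value above thus compares the strongest summit of each antibody over 596 bp, not the same bases. In the pooled lists a single peak of each antibody covered both positions, with its summit at 10607 bp for PBRM1 and 10975 bp for BRG1. Differing summits were not particular to this region. They were also seen at the *Ptges2* start, the *Tbxas1* intron region and *Slc25a25*, given below, while those in the distal *Ptges* regions lay close together. The share of all six-list regions with such offsets was not counted.

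**Figure D2:**
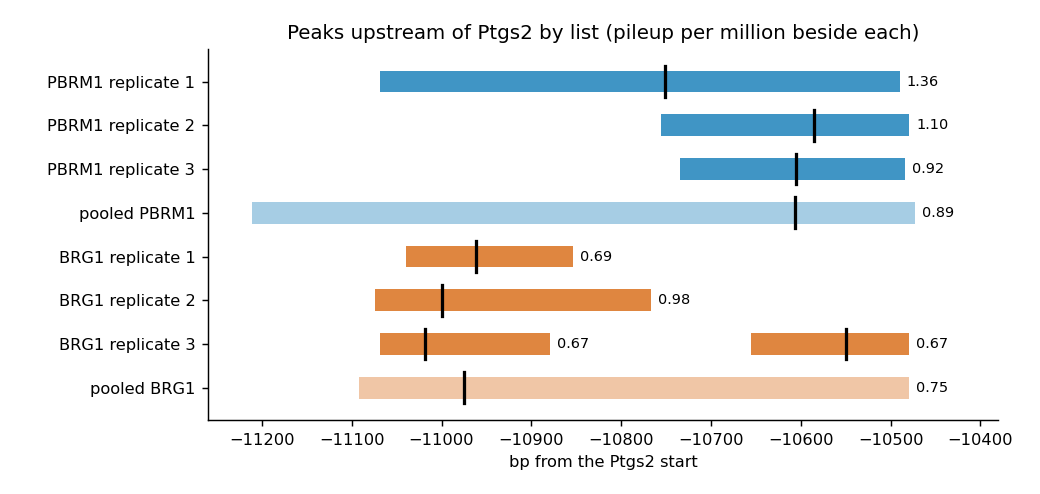
Peaks of each list in the region upstream of *Ptgs2*, as bars along bp from the *Ptgs2* start, with the summit as a black line and FPM printed beside each peak (PBRM1 blue, BRG1 orange, pooled lists pale). PBRM1 replicates 2 and 3 and BRG1 replicates 1 and 2 sit side by side without overlap, and PBRM1 replicate 1 with 1.36 FPM spans both positions.

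*Ptges* encodes the inducible microsomal prostaglandin E synthase (chromosome 2, 30889471 to 30929863, minus strand) and had 3 six-list regions. The region at the 5′-most start (30929058 to 30930047), which carries the AP-1 and cyclic AMP response element matches shown above, lies 26453 bp upstream of the protein-coding start. PBRM1 had 1.26, 1.49 and 1.50 FPM and BRG1 2.33, 1.96 and 2.00. The groups did not overlap, and the difference was -0.56 (SE 0.19, 95% interval -0.94 to -0.18, limma adjusted p = 0.0110). After centring it was -0.10 (limma adjusted p = 0.786), and on the ratio to local background -0.092 (limma adjusted p = 0.748). Without BRG1 replicate 1 the limma adjusted p was 0.0694.

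The other *Ptges* regions were distal. The region with the 2 AP-1 matches, 1 of them at the centre of the window, lay 17013 bp upstream of the protein-coding start (30919757 to 30920711), inside the intron of the longer transcript. Its values were 1.82, 1.38 and 1.46 FPM for PBRM1 and 1.26, 2.10 and 1.66 for BRG1, which overlapped fully (difference -0.088, SE 0.20, limma adjusted p = 0.715). The third region (30899340 to 30899834) lay 3611 bp past the protein-coding start, with its median summit 2102 bp from the nearest annotated start and so just outside the 2 kb limit. A PBRM1 replicate 1 peak near the 5′-most start lay just inside that limit, at 1970 bp. In the third region PBRM1 had 1.67, 1.54 and 0.875 FPM and BRG1 1.51, 1.89 and 1.60, with no call (difference -0.34, SE 0.21, limma adjusted p = 0.156). Both antibodies thus had peaks in every list on either side of the protein-coding start.

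*Ptges2* and *Ptges3* had the strongest start regions of the members. *Ptges2*, a membrane-associated prostaglandin E synthase (chromosome 2, 32395896 to 32405772, plus strand), had 2.27, 2.26 and 1.58 FPM for PBRM1 and 2.39, 2.80 and 2.46 for BRG1 (32395238 to 32396734). Every BRG1 library lay above every PBRM1 library, yet the difference of -0.34 (SE 0.18, 95% interval -0.70 to 0.02) did not pass the test (limma adjusted p = 0.100). Its level was at percentile 88.5 for PBRM1 and 74.1 for BRG1. Its strongest summits lay at 32395995, 32395939 and 32395970 for PBRM1 and at 32395692, 32395685 and 32396254 for BRG1, so the same bases are not compared. *Ptges3* encodes a cytosolic prostaglandin E synthase that is also the HSP90 co-chaperone p23 (chromosome 10, 128058954 to 128077272, plus strand). Its start region (128058377 to 128059157) had 1.77, 1.82 and 1.58 FPM for PBRM1 and 1.95, 3.15 and 3.39 for BRG1. The groups did not overlap, BRG1 replicate 1 being close to the PBRM1 libraries and the other BRG1 libraries well above. The difference was -0.68 (SE 0.18, 95% interval -1.04 to -0.31, limma adjusted p = 0.00186), and -0.21 (limma adjusted p = 0.493) after centring. Neither gene had a distal region in any replicate list.

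**Figure D3:**
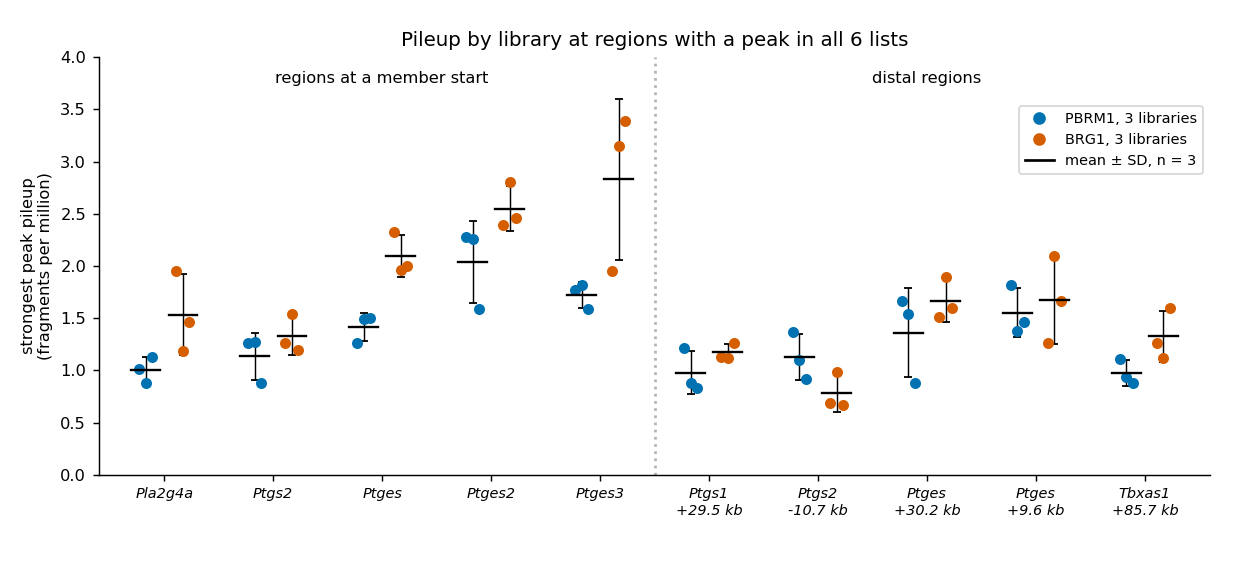
Strongest peak pileup, in FPM, in each library (points, PBRM1 blue and BRG1 orange, replicates 1 to 3 from left to right) with the mean ± SD of 3 libraries, at the members' six-list regions. *Ptges2* and *Ptges3* have the highest start regions, and the region 10.7 kb upstream of *Ptgs2* is the one where the PBRM1 mean (1.13) lies above the BRG1 mean (0.779).

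None of the member synthases of the other prostanoids, *Ptgds*, *Ptgis* and *Tbxas1*, had a start peak in all 6 lists. *Ptgds*, the lipocalin-type prostaglandin D synthase (chromosome 2, 25466709 to 25470046, minus strand), had no summit in any replicate list apart from a region at the neighbouring gene *Paxx*, 5.74 kb past its 3′ end. *Ptgis*, the prostacyclin synthase (chromosome 2, 167191805 to 167240604, minus strand), had 1 start peak in the replicate lists, with 0.717 FPM in PBRM1 replicate 2. Both pooled lists had a start peak at *Ptgis*. Its best supported region was in an intron at 8.13 kb (167232200 to 167232633), with 0.960, 0.772 and 0.875 FPM in the PBRM1 lists. Among the BRG1 lists only replicate 3 had a peak there, with 1.06 FPM, above every PBRM1 library. The 2 BRG1 lists without a peak give no level to compare.

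*Tbxas1*, the thromboxane synthase (chromosome 6, 38875404 to 39084585, plus strand), is the longest locus, with a gene body of 209 kb. Its start region, 1308 bp past the 5′-most start and also within 2 kb of a start of *Hipk2*, had 0.859 and 0.834 FPM in PBRM1 replicates 1 and 3 and 1.32 and 1.46 in BRG1 replicates 1 and 3. At its other protein-coding starts, 43.6 kb and 66.0 kb along the gene, no replicate list had a summit within 2 kb, although the pooled BRG1 list did. The six-list region of the locus was intronic at 85.7 kb (38960820 to 38961632) and held 2 E-box matches. There PBRM1 had 1.11, 0.938 and 0.875 FPM and BRG1 1.26, 1.12 and 1.60. The groups did not overlap, and the difference of -0.43 (SE 0.22, 95% interval -0.86 to -0.0036, limma adjusted p = 0.0810) missed the threshold and was 0.032 after centring. The strongest summits lay at 38961386, 38960876 and 38961250 for PBRM1 and at 38961097, 38961053 and 38961072 for BRG1. The same bases are thus not compared.

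Over the 5 start regions in all 6 lists, 3 were called lower in PBRM1 on the FPM scale, where 53.0% of all six-list regions were, and none was called after centring, where 2.45% were lower and 2.28% higher. The median difference of the 5 was -0.56, near the -0.485 of all regions. Of the 5 distal six-list regions, 1 was called higher in PBRM1 and none lower, with a median difference of -0.28. Over all six-list regions, 0.428% were called higher and 53.0% lower on the FPM scale. Those shares and the -0.485 include start regions, and values over distal regions alone were not computed. After centring, the upstream *Ptgs2* region was the 1 member region of these 10 that was called. Distal six-list regions were present in 4 of 9 members (*Ptgs1*, *Ptgs2*, *Ptges* and *Tbxas1*) against 13.9% of protein-coding genes. Longer loci can hold more regions, and member gene bodies ranged from 3.34 kb to 209 kb.

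**Figure D4:**
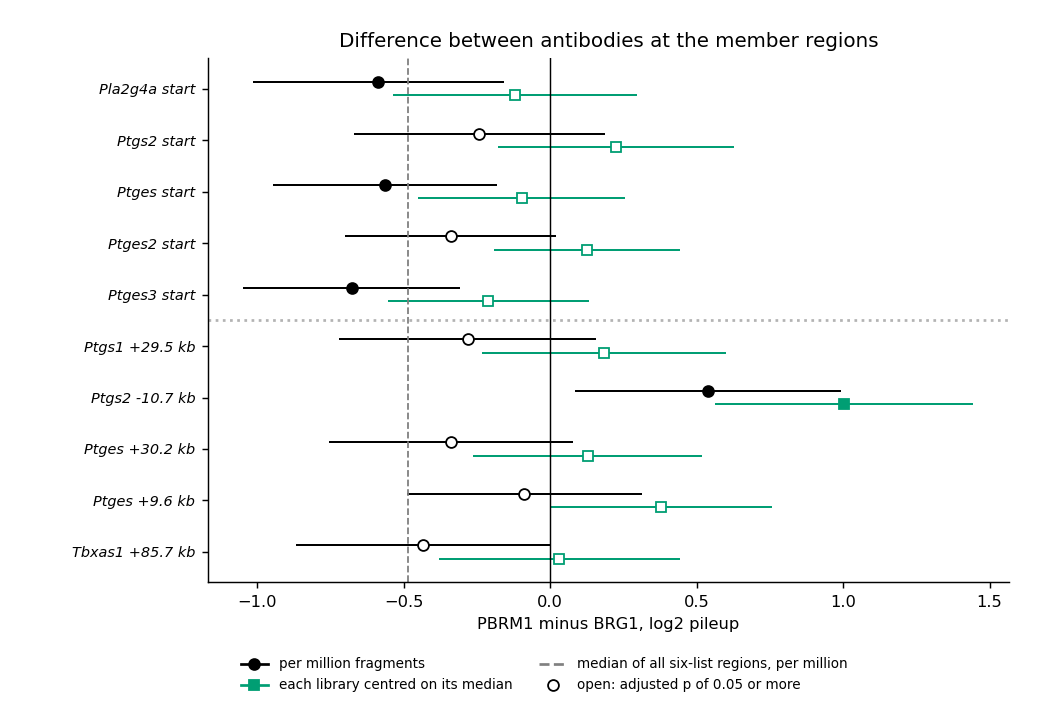
PBRM1 minus BRG1 in log2 pileup with 95% limma intervals at the members' six-list regions, in FPM (black circles) and after each library was centred on its median (green squares), filled where the adjusted p is below 0.05. The dashed line is the median of all six-list regions, -0.485, and only the region 10.7 kb upstream of *Ptgs2* is filled on the positive side on both scales.

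Peak numbers in the 9 loci did not differ detectably between antibodies. PBRM1 libraries had 41, 31 and 35 peaks and BRG1 libraries 38, 37 and 39. The ranges overlapped, with means of 35.7 ± 5.03 and 38.0 ± 1.00 (SD, n = 3 each, two-sided exact permutation p = 0.6, where 3 against 3 cannot go below 0.1). For own starts the means were 8.33 and 7 peaks (exact permutation p = 0.4) and for distal peaks 21 and 24.7 (exact permutation p = 0.4). Of the 80 merged regions, 14 were in all 6 lists, where 15.5% of the 83005 regions of the series were, and 34 in a single list, where 47.0% were. PBRM1 peaks alone made up 20 regions, against 26.7% of the series, and BRG1 peaks alone 21, against 30.4%.

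The other genes of the pathway were described from named lists. Over all protein-coding genes, 41.5% had a start peak in all 6 lists and 34.9% had none in the replicate lists. Of 9 prostanoid receptor genes, *Ptger4* and *Tbxa2r*, receptors for prostaglandin E and thromboxane, had a start peak in all 6 lists, and *Ptgir*, *Ptgdr* and *Ptgdr2*, receptors for prostacyclin and prostaglandin D, had none in the replicate lists, although both pooled lists had one at *Ptgir*. Of 7 genes of transport and breakdown, 5 had one in all 6 lists, among them *Hpgd*, the main catabolic dehydrogenase. At *Hpgd* the mean was 1.21 FPM for PBRM1 and 2.10 for BRG1 (difference -0.83, limma adjusted p = 0.000531; after centring -0.37, limma adjusted p = 0.231). Of 9 other arachidonate and prostaglandin enzymes, 3 had one in all 6 lists (*Pla2g6*, *Fam213b* and *Akr1b3*) and 4 had none. All 3 were called lower in PBRM1 on the FPM scale, where 53.0% of all six-list regions were. *Pla2g6*, the calcium-independent phospholipase, remained called after centring (-0.54, limma adjusted p = 0.0165). Start regions called in either direction after centring numbered 0 of 2 for receptors, 0 of 4 for transport and breakdown and 1 of 3 for these enzymes. Of all six-list regions, 2.45% were called lower in PBRM1 and 2.28% higher after centring.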

How the data were processed

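ChIC-Seq peak lists of 3 PBRM1 and 3 BRG1 libraries, and 1 pooled list per antibody, were used. The submitters' processing notes name cutadapt, Bowtie2, MACS2 and GRCm38.p5, and further alignment settings are not given in the sources used here. MACS 2.2.7.1 was run by the authors in paired-end mode, per the file headers, with a q cutoff of 0.05, duplicates retained and no control file, so background came from 10000 bp of the same library. The deposited pileup is unscaled signal (fragment coverage) at the summit, fold enrichment, as deposited, divides it by local background (a ratio), and the deposited q-value is −log10 q. Sites open to the nuclease whatever the antibody can be called in such lists.

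Overlapping peaks of the 6 replicate lists were merged. The strongest pileup in FPM (fragments per 1000000), as log2 with no pseudocount, was compared between antibodies over all 12842 regions with a peak in all 6 lists, with limma 3.58.1 (R 4.3.3, variance trend, Benjamini-Hochberg adjustment, threshold 0.05). The fit draws the variance of each region toward a trend over all these regions (empirical Bayes), unlike the SDs given for single regions. A region had to pass the caller in every library to enter. The limma step was also run on simulated normal values with planted changes. These held no general shift between antibodies and no selection by the caller, so that run cannot show how the fit behaves with either. Peak counts were compared by exact permutation. Genes came from GENCODE M21 and sequence from GRCm38.p6. No peak end lay beyond its chromosome. All 9 members were named, with distal regions in all 6 lists or, where a member had none, the region with most lists. Non-member genes were named where they belonged to a listed pathway or marker group, had a start in a member locus, or had a start region most like that of *Ptgs2*. The members and lists were chosen with earlier results of these data known. Of the listed genes, *Pla2g2a* was not among the annotated protein-coding genes. Alternatives covered scaling, thresholds, windows, joining of peaks, the replicate block and left-out libraries.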

Additional observations from a re-analysis of the deposited data

How the results depend on the processing

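Of the 10 differences at member regions, none that was called reversed. After centring, *Pla2g4a* (-0.12), *Ptges* (-0.10) and *Ptges3* (-0.21) start regions lost their call, and uncalled differences turned positive at the starts of *Ptgs2* (0.22) and *Ptges2* (0.13) and in the distal regions of *Ptgs1* (0.18), *Tbxas1* (0.032) and *Ptges* (0.13 and 0.38). With fold enrichment in place of pileup, *Ptges* (-0.092) and *Ptges3* (-0.41) lost their call, *Ptges2* (0.12) and the distal *Ptges* regions (0.15 and 0.24) turned positive, and *Pla2g4a* grew to -0.88. Centring removes the general shift by construction, and the cause of the other changes was not tested. Leaving out 1 library gave -0.75 to -0.40 for *Pla2g4a*, -0.61 to -0.48 for *Ptges* and -0.28 to 0.091 for the *Ptges* intron region at 9.55 kb, which was positive without BRG1 replicate 2. Without PBRM1 replicate 3, uncalled differences shrank to -0.047 for the *Ptges* region at 30.2 kb, -0.064 for the *Ptgs2* start and -0.17 for the *Ptges2* start.

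Regions called lower in PBRM1 numbered 6803, against 315 after centring, 1363 with fold enrichment and 5190 to 6847 with 1 library left out. Those called higher numbered 55, against 293, 29, 15 at a −log10 q of at least 5, and 33 to 79 with 1 library left out, the lowest being without PBRM1 replicate 2 (33) and BRG1 replicate 3 (36). At that stricter q, 3 members instead of 6 had a start peak in all 6 lists (27.0% of genes instead of 41.5%), and 3 instead of 6 in all PBRM1 lists (28.8% instead of 43.9%), and only the *Ptges*, *Ptges2* and *Ptges3* start regions could be fitted. The peak number difference of -2.33 became 0 with 10 kb around the genes, -5.67 with 50 kb and -4.33 at the stricter q, and ranged from -5 to 0 with 1 library left out (0 without PBRM1 replicate 2).

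No shared deviation of same-numbered libraries was seen in pileup, where their deviations correlated between -0.0286 and 0.00373. This cannot show whether such libraries shared an animal or a preparation. The replicate block moved the number of calls from 6858 to 6642 and changed no call at a member region. The exact sign-flip p of the peak number difference with the replicate block was 0.5, where 3 pairs cannot go below 0.25. Pileups of 10 to 51 fragments limit each single value.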

Other observations

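Starts of neighbouring genes held 4 of the 14 six-list regions in the member loci. *Paxx*, beside *Ptgds*, had a mean of 1.51 ± 0.227 FPM for PBRM1 and 2.48 ± 0.189 for BRG1 (SD, n = 3 each; difference -0.72, limma adjusted p = 0.00106, and -0.26 with limma adjusted p = 0.370 after centring). *Atp5b*, beside *Ptges3*, had 1.40 ± 0.130 and 2.32 ± 0.179 FPM. Its strongest summits lay at 128083233, 128082909 and 128082902 for PBRM1 and at 128083288, 128083284 and 128083286 for BRG1, so the same bases are not compared in every library. *Slc25a25*, beside *Ptges2*, had 1.67 ± 0.205 and 1.66 ± 0.0544, so that the general shift between antibodies was not seen there (difference 0.0028, limma adjusted p = 0.991, and 0.47 with limma adjusted p = 0.103 after centring). The strongest summits at *Slc25a25* lay at 32424019, 32423940 and 32423983 for PBRM1 and at 32424280, 32424514 and 32424269 for BRG1. The same bases are thus not compared. *1110008P14Rik*, on the other side of *Ptges2*, had 1.45 ± 0.368 and 1.98 ± 0.498.

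Of 6 genes of the leukotriene and lipoxygenase branch of arachidonic acid metabolism, 3 had a start peak in all 6 lists (*Alox12*, *Lta4h* and *Ltc4s*). The share over all protein-coding genes was 41.5%. *Ltc4s*, the leukotriene C synthase, had 0.992 FPM for PBRM1 and 2.14 for BRG1, and its difference of -1.11 (limma adjusted p = 1.26e-05) remained called after centring (-0.65, limma adjusted p = 0.0287). *Lta4h* was also called lower in PBRM1 (-0.49, limma adjusted p = 0.0247) and lost its call after centring (-0.026, limma adjusted p = 0.945). The shares called lower over all six-list regions were 53.0% in FPM and 2.45% after centring.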
